A study of Mus musculus with 6 samples.

Results

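Multidrug efflux transporters are membrane pumps of the ATP-binding cassette (ABC) family, which use ATP to move drugs, lipids and conjugated metabolites out of the cell. The 7 genes described here are Abcb1a, Abcb1b, Abcb4, Abcc1, Abcc3, Abcc5 and Abcg2, of 12394 genes measured. They were measured in CD11c-positive conventional dendritic cells (DCs), the antigen-presenting cells of lymphoid organs, sorted by flow cytometry from spleen (3 arrays) and lymph nodes (3 arrays) of BALB/c mice. BALB/c is an inbred laboratory strain, and both groups share that strain and the sort on CD11c, the integrin encoded by Itgax. The labels name no treatment, transgene or age. Whether each array stands for its own mouse or for a pool is not given in them, so a p-value here speaks of array-to-array spread alone, part of which may be technical. The gene set was proposed with this comparison already known: Abcb1a had been named among the genes with the largest differences between the groups, and its family and other classical efflux pumps were added to it. The differences of the 7 genes between spleen and lymph node are therefore given as descriptions, without a test. Where a count of genes past a threshold is given for the 7, it is a description too. All 7 had a probe set, 15 probe sets in all, and each gene was read from its brightest one by the mean over the 6 arrays. No filter on level was applied, so all 7 were kept.

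The best known of these pumps is P-glycoprotein, the product of the human gene ABCB1, whose role in mice is shared by the neighbouring genes Abcb1a and Abcb1b. P-glycoprotein extrudes hydrophobic compounds and is known from the blood-brain barrier, the gut, haematopoietic stem cells and lymphocytes. The related Abcb4 product moves phosphatidylcholine across the membrane of liver cells. The ABCC pumps export organic anions: Abcc1 encodes MRP1, which carries glutathione conjugates and leukotriene C4, Abcc3 encodes MRP3, which carries glucuronides and bile acids, and Abcc5 encodes MRP5, which carries cyclic nucleotides. Abcg2 encodes BCRP, a pump of drugs, urate and porphyrins that marks the side population of stem cells. In DCs, leukotriene C4 export by MRP1 is known to take part in migration to lymph nodes.

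The arrays were alike in scale, with array medians of 39.4 to 41.3 intensity units, and precision is limited by having 3 arrays a group. Their labels need a caution. Ccl22 and Ccr7, known for DCs that migrate from tissues to lymph nodes, were 31.3-fold and 2.77-fold higher in the arrays labelled spleen (limma adjusted p = 7.92e-05 and 0.0496, where a gene passes below 0.05). With 1 array left out, Ccl22 passed in 6 of 6 fits and Ccr7 only without spleen array 3, with adjusted p up to 0.190 in the others; Ccr7 also missed the threshold with median centring (0.0520) or an offset of 16 (0.0776). Itgax, which marks the sorted cells, lay between 9.74 and 10.97 on the log2 scale on all arrays but was 1.96-fold lower in those labelled spleen (adjusted p = 0.0310), a call lost without spleen array 1 or any single lymph node array (up to 0.134). The labels are used as names throughout, and differences have the lymph node value subtracted from the spleen value. Were the labels exchanged, every difference printed here would change its sign. The bacterial poly-A control probe sets, which measure RNA added during the work-up, averaged 8.41 to 9.06 on the log2 scale in spleen arrays and 7.39 to 7.96 in lymph node arrays, without overlap. A control for a transcript that should be absent, TrpnX, lay at 2.01 to 2.20. Some genes averaged below it, such as Abcb11 at 1.63 in spleen arrays and 1.97 in lymph node arrays, so it is not a floor.

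Abcb1a was the pump with the largest difference. The deposited intensity of its brightest probe set was 44.6, 57.3 and 42.8 on spleen arrays 1 to 3, against 250.7, 263.7 and 232.2 on lymph node arrays 1 to 3. The 3 spleen arrays all lay far below the 3 lymph node arrays, and the groups did not overlap. On the log2 scale Abcb1a averaged 5.58 ± 0.23 in spleen arrays and 7.96 ± 0.09 in lymph node arrays (SD, n = 3 each), a difference of -2.38 ± 0.17 (SE), or 5.20-fold lower in spleen arrays. Among all 12394 genes it had the 10th lowest difference. In such bulk samples, fewer cells of a type that carries the transcript and less of it per cell cannot be told apart.

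The second probe set of Abcb1a gave the same direction. It read 4.98, 3.84 and 3.22 on the spleen arrays and 6.78, 6.91 and 5.83 on the lymph node arrays (log2 intensity), again without overlap. Its difference was -2.49 ± 0.47 (SE), with a wider error than the first. Both probe sets come from the same RNA, so the second is a check of the probes and not a further sample. With any single array left out, the difference of the brighter probe set lay between -2.51 and -2.30.

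**Figure D1:**
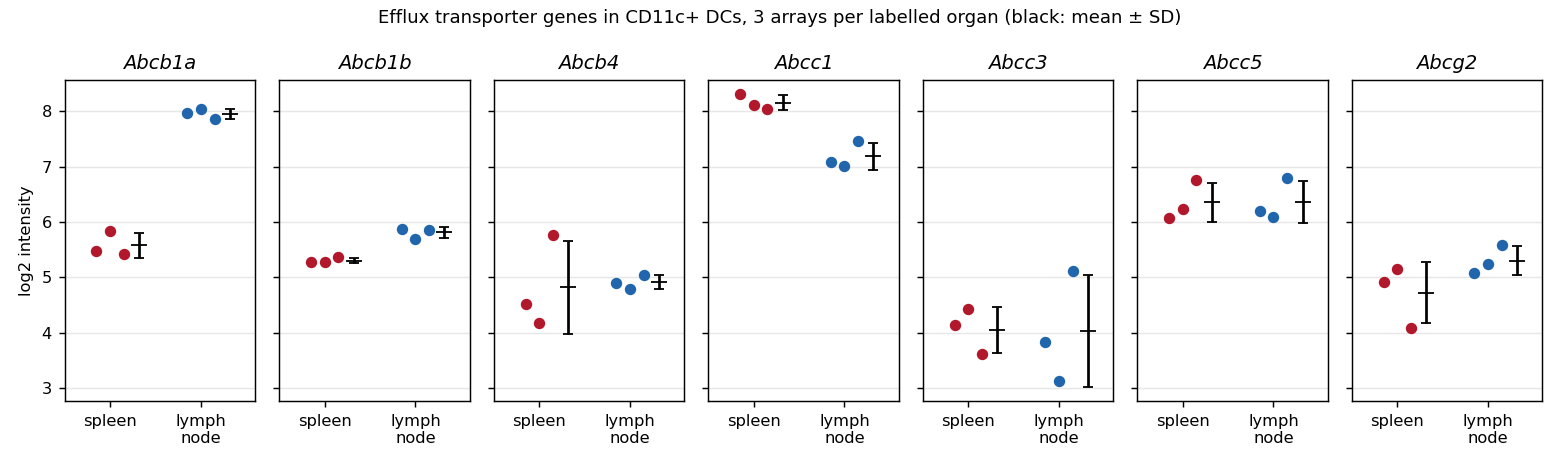
Log2 intensity of the 7 efflux transporter genes (vertical axis) on the 3 arrays labelled spleen (red, left) and the 3 labelled lymph node (blue, right), with the mean ± SD in black. Abcb1a and Abcb1b lie lower and Abcc1 higher in spleen arrays without overlap, whereas Abcb4, Abcc3, Abcc5 and Abcg2 overlap.

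Abcb1b, the other mouse gene for P-glycoprotein, had the same direction with a much smaller difference. It read 5.29, 5.27 and 5.36 on the spleen arrays, against 5.88, 5.70 and 5.87 on the lymph node arrays (log2 intensity of its single probe set). The groups did not overlap, but they lay close together: the difference was -0.51 ± 0.15 (SE), or 1.42-fold lower in spleen arrays. Abcb1a and Abcb1b have similar sequences, and whether a probe set also catches the transcript of the other gene was not tested.

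Abcb4, the phosphatidylcholine floppase, read 4.52, 4.18 and 5.76 on the spleen arrays and 4.90, 4.80 and 5.05 on the lymph node arrays. The highest and the 2 lowest arrays were all from spleen, so the lymph node arrays lay inside the spleen range. The difference was -0.10 ± 0.38 (SE), and it was -0.57 without spleen array 3 and 0.22 without spleen array 2, so that the direction depended on single arrays.

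The 3 genes stand side by side on mouse chromosome 5, in the order Abcb1a, Abcb1b and Abcb4 in the RefSeq gene table of assembly GRCm38.p6. RefSeq promoter sequences of that assembly were matched by symbol for 5 of the 7 genes, and those of the 2 P-glycoprotein genes are shown because these neighbours share a role but differed in size of difference. Each line gives the 250 bases before a start listed for the gene in that annotation, 5′ to 3′ on the plus strand. The windows are chr5:8566841-8567090 for Abcb1a and chr5:8797897-8798146 for Abcb1b. A gene can have other starts, and whether these cells use the listed ones was not tested. Capitals mark the CCAAT box, which reads ATTGG from the reverse strand, and the GC box, spelled GGGCGG.
Abcb1a: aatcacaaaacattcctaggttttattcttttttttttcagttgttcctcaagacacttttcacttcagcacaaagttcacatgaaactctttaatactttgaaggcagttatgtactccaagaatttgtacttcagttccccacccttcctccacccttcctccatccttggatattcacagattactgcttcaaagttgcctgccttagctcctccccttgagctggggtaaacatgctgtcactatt
Abcb1b: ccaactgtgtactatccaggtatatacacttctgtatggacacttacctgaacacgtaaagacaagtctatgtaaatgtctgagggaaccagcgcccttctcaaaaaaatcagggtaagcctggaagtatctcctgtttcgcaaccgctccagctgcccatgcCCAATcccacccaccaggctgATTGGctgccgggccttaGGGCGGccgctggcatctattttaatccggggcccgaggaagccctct
The Abcb1b window held 2 CCAAT matches and 1 GC box, while the Abcb1a window held 0 of either. Of 32841 promoter windows of the same length, 33.9% held CCAAT and 32.7% held the GC box on either strand, and none of the 3 matches overlapped another. TATAAA, the TATA box, was searched on both strands as well, was found in neither of these windows and was present in 12.4% of all. The G and C content was 40.4% in the Abcb1a window and 52.8% in that of Abcb1b, against a median of 52.4% over all windows. The dinucleotide CG occurred 0 times in the Abcb1a window and 9 times in that of Abcb1b, with a median of 6. These matches describe the letters only, and the arrays say nothing of what binds there.

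Abcc1, the gene of MRP1, differed in the opposite direction to Abcb1a. The deposited intensity of its brightest probe set was 316.7, 278.2 and 264.9 on spleen arrays 1 to 3, against 135.6, 129.2 and 176.7 on lymph node arrays 1 to 3. All 3 spleen arrays lay above the lymph node arrays, of which array 3 was the highest. On the log2 scale the gene averaged 8.16 ± 0.13 in spleen arrays and 7.19 ± 0.24 in lymph node arrays (SD, n = 3 each), a difference of 0.97 ± 0.18 (SE), or 1.96-fold higher in spleen arrays. The second probe set of Abcc1 did not separate the groups: it read 7.74, 7.47 and 7.82 on the spleen arrays and 7.35, 7.30 and 7.68 on the lymph node arrays. Its difference was 0.23 ± 0.18 (SE), and the mean of both probe sets differed by 0.60, so the size of the Abcc1 difference depended on the probe set.

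Abcc3 and Abcc5 showed no separation between the groups by their brightest probe sets. Abcc3, the gene of MRP3, read 4.14, 4.43 and 3.61 on the spleen arrays and 3.84, 3.14 and 5.13 on the lymph node arrays. Its lymph node arrays spanned a wider range than its spleen arrays, and the difference of 0.024 ± 0.47 (SE) became 0.57 and -0.42 when lymph node array 3 or lymph node array 2, in that order, was left out. Abcc5, the gene of MRP5, read 6.08, 6.24 and 6.76 on the spleen arrays and 6.19, 6.09 and 6.80 on the lymph node arrays. In both groups array 3 was the highest, and the group means were 6.36 each, with a difference of 3.48e-05 ± 0.26 (SE).

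Abcc5 had 7 probe sets, which did not all give the same picture. Of these, 5 were lower and 2 higher in spleen arrays, with differences from -0.75 to 0.053, and 1 separated the groups. That one read 3.32, 4.0 and 4.10 on the spleen arrays and 4.21, 4.28 and 4.54 on the lymph node arrays, a difference of -0.54 ± 0.24 (SE) at a low level.

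Abcg2, the gene of BCRP, read 4.93, 5.15 and 4.10 on the spleen arrays, against 5.08, 5.24 and 5.59 on the lymph node arrays. The groups overlapped narrowly, spleen array 3 being the lowest of the 6. The difference was -0.58 ± 0.29 (SE), or 1.49-fold lower in spleen arrays, and it was -0.26 without spleen array 3.

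**Figure D2:**
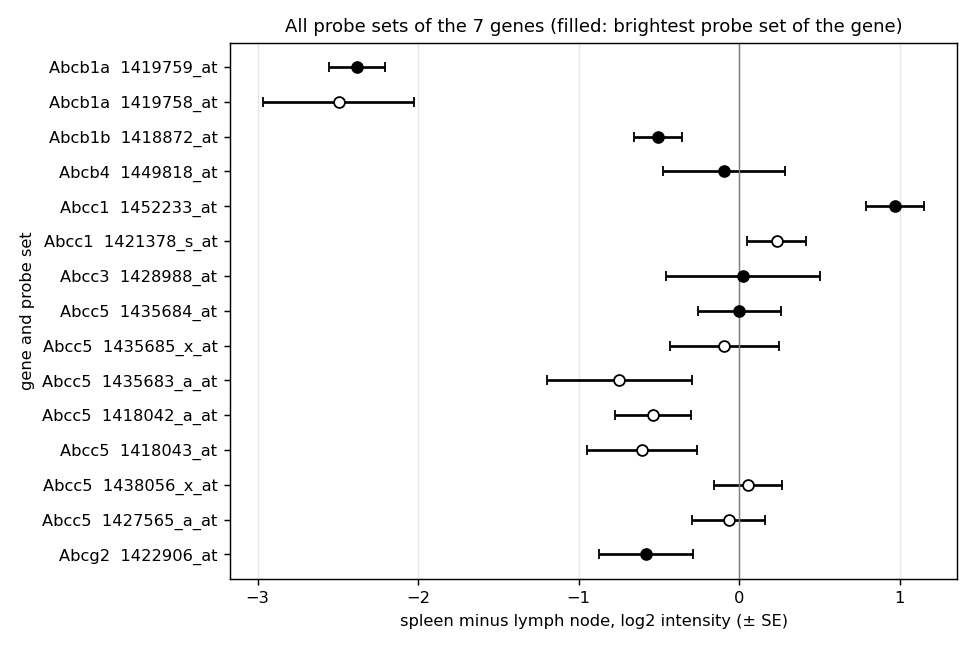
Difference between spleen and lymph node arrays in log2 intensity (horizontal axis, bars ± SE) for the 15 probe sets of the 7 genes, with the brightest probe set of each gene filled. Both Abcb1a probe sets lie near -2.4, the Abcc1 probe sets at 0.97 and 0.23, and the 7 Abcc5 probe sets between -0.75 and 0.053.

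Over the 7 genes, 3 differences were above 0 and 4 below, with a median of -0.10, beside a median of -0.0053 over all genes. Spleen and lymph node arrays did not overlap for 3 of the 7 genes (Abcb1a, Abcb1b and Abcc1), and for 24.5% of all genes. In the fit across all genes with limma and an adjusted p of 0.05, which placed 421 genes past the threshold or 3.4%, the 7 included 1 lower gene (Abcb1a, where 1.37% of all genes were lower) and 1 higher gene (Abcc1, where 2.03% were higher). Because Abcb1a was picked for this difference and the other genes were added to it, these calls are no test of the 7 genes. Nothing is read from them, here or in the other fits. The count over all genes was 130 without spleen array 1, and 56 and 47 without lymph node arrays 1 and 2 in turn. Among the 7 genes, 1 was past the threshold without spleen array 1, without spleen array 2, and without each of lymph node arrays 1 and 2. In each of these fits it was a lower gene and 0 were higher, so Abcc1 did not pass in them. With the poly-A control level as a covariate, 0 genes passed in limma, 701 genes had an unadjusted p under 0.05, and the Abcb1a difference was -1.90. That fit has 3 residual degrees of freedom, and since the control level separates the groups, it cannot be told apart from the labels.

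Markers of the sorted cells and of other cell types that a CD11c sort could hold were read on the same arrays, with limma calls over all genes and with intensities summed over each list, which its brightest members dominate. For comparison, 2.03% of all genes were higher, 1.37% were lower and 50.7% were below 0. Of 9 conventional DC markers, 9 measured, 2 were lower, 0 were higher and 8 were below 0; the sum was 12878 to 18586 in spleen arrays and 22397 to 23947 in lymph node arrays, the direction of Abcb1a. Of 9 B cell markers measured of 10, 2 were lower, 0 were higher and 6 were below 0, with Ebf1 under a log2 value of 4 on all arrays; the sum was 217.2 to 272.4 in spleen arrays and 426.6 to 591.4 in lymph node arrays. Of 9 neutrophil markers measured of 10, 1 was lower, 0 were higher and 7 were below 0, with Lcn2, Mpo, Elane and Cxcr2 under 4 on all arrays. Their sum was 79.8 to 147.8 in spleen arrays and 194.2 to 738.9 in lymph node arrays. Endothelial cells carry P-glycoprotein in many vessels: of 11 markers, 11 measured, 1 was higher, 1 lower and 8 were below 0, and Tek, Tie1, Emcn, Plvap and Cldn5 were under 4 on all arrays. Their sum was 280.1 to 359.8 in spleen arrays and 391.3 to 418.6 in lymph node arrays.

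Of the other lists, those of migratory DCs, plasmacytoid DCs and T cells had higher sums in spleen arrays, the direction of Abcc1. Of 9 migratory DC markers, 9 measured, 8 were higher, 0 were lower and 9 were above 0, with Il4i1 under 4 on all arrays; the sum was 5082 to 7070 in spleen arrays and 1283 to 1852 in lymph node arrays. Of 10 plasmacytoid DC markers measured of 12, 3 were higher, 0 were lower and 9 were above 0, with a sum of 1628 to 5376 in spleen arrays and 619 to 1264 in lymph node arrays. Of 10 T cell markers measured of 12, 1 was higher, 0 were lower and 8 were above 0, with Trat1 and Bcl11b under 4 on all arrays and a sum of 453.9 to 1045 in spleen arrays and 160.2 to 429.3 in lymph node arrays. NK cell markers (9 of 10 measured, Klra1 under 4) and red pulp macrophage markers (11 of 11, Mertk under 4) had 0 calls each in limma. Each list had 1 gene at an unadjusted p under 0.05, beside 19% of all genes. Of the NK cell markers 7 were above 0, and of the red pulp macrophage markers 9 were below 0. The sums of both lists overlapped between the groups. These were 512 to 1799 and 383.8 to 438 in spleen arrays, against 412.1 to 962.5 and 358.9 to 1130 in lymph node arrays. The part of these cells in the differences of the efflux genes was not tested.

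To see whether the wider ABC family moved, the other ABC genes were tested in limma over all genes. Of 46 listed, 32 were measured, and 5 passed an adjusted p of 0.05: 3 higher and 2 lower in spleen arrays, or 15.6% beside 3.4% of all genes. Their median difference was -0.023, against -0.0053 over all genes, and 15 of the 32 were above 0. Without lymph node array 1, 0 of the 32 passed in limma, in a fit where 56 of all genes passed instead of 421. At an unadjusted p under 0.05 there were 5 of the 32, as many as with all 6 arrays. The count past the threshold was 1 when lymph node array 2 was left out, 2 for spleen array 1 or lymph node array 3, and 3 for spleen array 2. By subfamily, 2 of 7 ABCA genes, 0 of 7 ABCB genes, 1 of 6 ABCC genes, 0 of 3 ABCD genes, 0 of 4 ABCE and ABCF genes and 2 of 5 ABCG genes passed. At an unadjusted p under 0.05 the ABCB, ABCD and ABCE and ABCF genes also had 0 members. The ABCB genes include Tap1 and Tap2, which carry peptides into the endoplasmic reticulum for MHC class I, at differences of 0.34 and -0.26, which did not pass; these 2 were chosen after their values were seen.

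The larger of the 2 lower differences was that of Abcg3, a rodent relative of Abcg2. It read 9.29, 9.65 and 9.13 on the spleen arrays and 11.00, 10.82 and 11.07 on the lymph node arrays, without overlap. It was 3.05-fold lower in spleen arrays (difference -1.61 ± 0.19 SE, adjusted p = 0.00857 in limma, n = 3 each), and its other probe set differed by -1.68. Abcg3 passed in 5 of the 6 fits with 1 array left out and not without lymph node array 1 (adjusted p = 0.0580). Abca2, a lipid transporter of lysosomes, was 1.82-fold lower (-0.86 ± 0.15 SE, adjusted p = 0.0310) but passed in 1 of those 6 fits, that without spleen array 3, with adjusted p up to 0.138 in the others, and not without both arrays numbered 3 (0.0717).

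In the other direction, Abca1, the cholesterol exporter to apolipoproteins, was 3.00-fold higher in spleen arrays (1.59 ± 0.21 SE, adjusted p = 0.0119), with means of 4.41 and 2.82 in spleen and lymph node arrays. Its call was lost without lymph node array 1 or 2 (adjusted p up to 0.0756), and the lower mean is near the level of the TrpnX control. Cftr, the chloride channel gene of the ABCC subfamily, was 5.65-fold higher (2.50 ± 0.48 SE, adjusted p = 0.0373), at 5.06, 6.03 and 3.98 on the spleen arrays and 2.68, 2.07 and 2.83 on the lymph node arrays. The lymph node arrays were all close to the level of the TrpnX control, and the difference was 1.32 by the other probe set and 1.20, no longer past the threshold, with an offset of 16 (adjusted p = 0.123). With 1 array left out Cftr passed in 2 of 6 fits, and the call was lost without spleen array 1 or any single lymph node array (adjusted p up to 0.151). Abcg1, a cholesterol exporter that works with Abca1, was the fifth gene and was named after its values were seen: it was 1.67-fold higher (0.74 ± 0.16 SE, adjusted p = 0.0477) and passed in 0 of those 6 fits. In the same arrays 8 of 9 migratory DC markers were higher and 2 of 9 conventional DC markers lower, and their part in these calls was not tested.

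**Figure D3:**
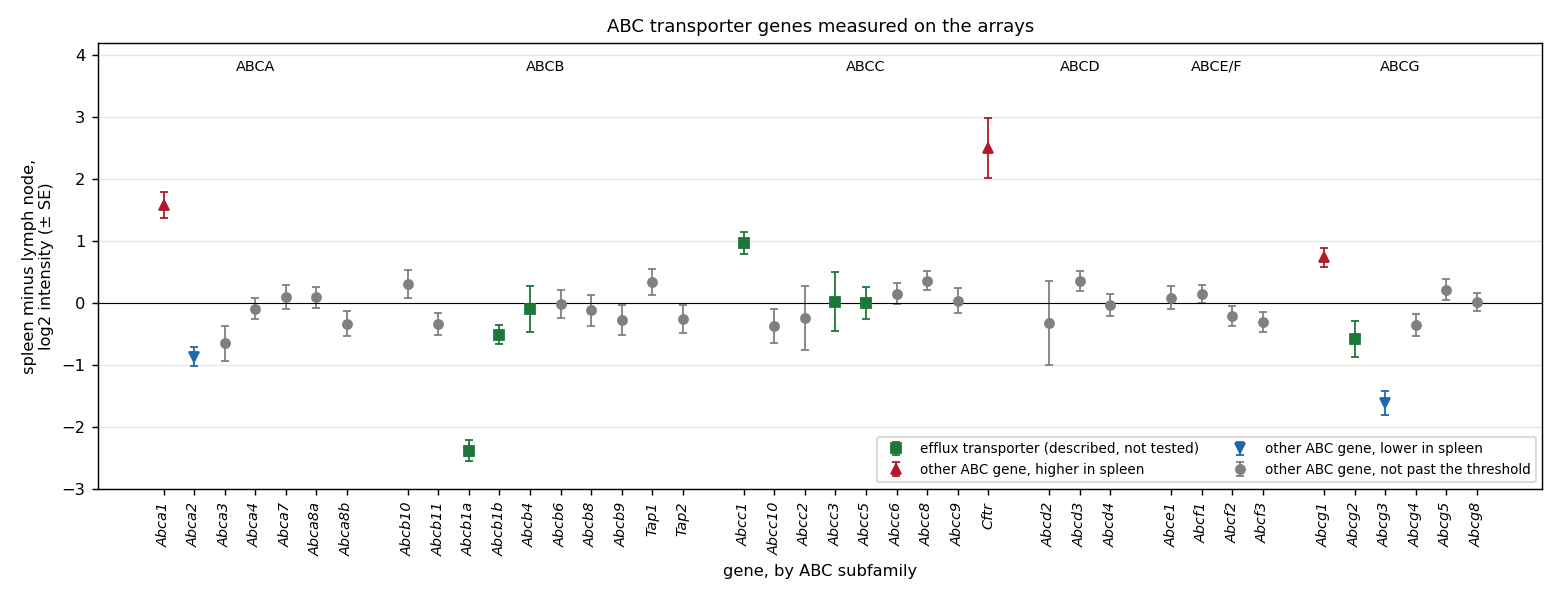
Difference between spleen and lymph node arrays in log2 intensity (vertical axis, bars ± SE) for all 39 measured ABC genes, grouped by subfamily. The 7 efflux transporters are green squares, and of the 32 others 3 passed as higher (red) and 2 as lower (blue), while 27 did not pass (grey). Abcb1a has the lowest value, -2.38, and Cftr the highest, 2.50.

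The chromosomal surroundings of Abcb1a were examined through the 10 measured genes on either side of the Abcb1a, Abcb1b and Abcb4 cluster. Of these 20 neighbours, 1 was lower and 0 were higher in spleen arrays in limma, 5% beside 3.4% of all genes, with a median difference of 0.0027. The lower one was Cdk14, a cyclin-dependent kinase gene, at 7.58, 8.58 and 8.01 on the spleen arrays and 9.23, 9.42 and 9.21 on the lymph node arrays (-1.23 ± 0.26 SE, adjusted p = 0.0467, n = 3 each). It passed in 1 of the 6 fits with 1 array left out, that without spleen array 2, with adjusted p up to 0.184 in the others, and not with an offset of 16 (0.0666) or the mean of its probe sets (0.102). Cyp51, an enzyme of cholesterol synthesis, had the next largest difference and did not pass (0.94 ± 0.25 SE, adjusted p = 0.0903). The measured genes that flank the cluster directly, Dbf4, a gene of replication control, and Crot, a peroxisomal acyltransferase gene, differed by 0.69 ± 0.24 (SE) and -0.32 ± 0.18 (SE) and did not pass (adjusted p = 0.175 and 0.414).

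**Figure D4:**
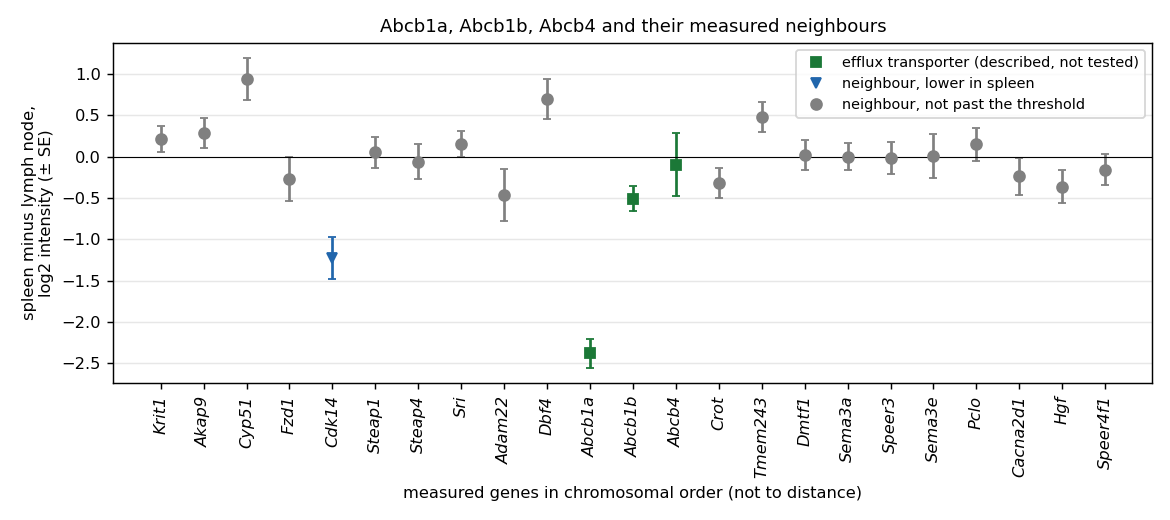
Difference between spleen and lymph node arrays in log2 intensity (vertical axis, bars ± SE) for Abcb1a, Abcb1b and Abcb4 (green squares) and the 10 measured genes on either side, in chromosomal order and not to distance. Of the 20 neighbours, Cdk14 (blue) passed at -1.23, and the 19 in grey did not pass.

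Genes whose values most resembled Abcb1a were found by the root mean square distance between log2 values over the 6 arrays, each gene centred on its own mean. The 8 nearest were Dab2ip, a Ras GTPase-activating gene (distance 0.30), Mefv, the gene of the inflammasome protein pyrin (0.30), Itln1, a secreted lectin gene (0.32), and Siglece, an inhibitory sialic acid receptor (0.32). They were followed by the kinase gene Matk (0.33), the Golgi gene Dym (0.35), the ubiquitin-conjugating enzyme gene Ube2e2 (0.35) and Il10ra, the receptor chain for interleukin 10 (0.36). Their differences ran from -1.98 for Siglece to -1.66 for Il10ra, all smaller in size than that of Abcb1a. The other efflux genes were farther away, the nearest being Abcg2 and Abcb1b, both at 0.95. By its construction the measure picks genes with a like step between the 2 groups.

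**Figure D5:**
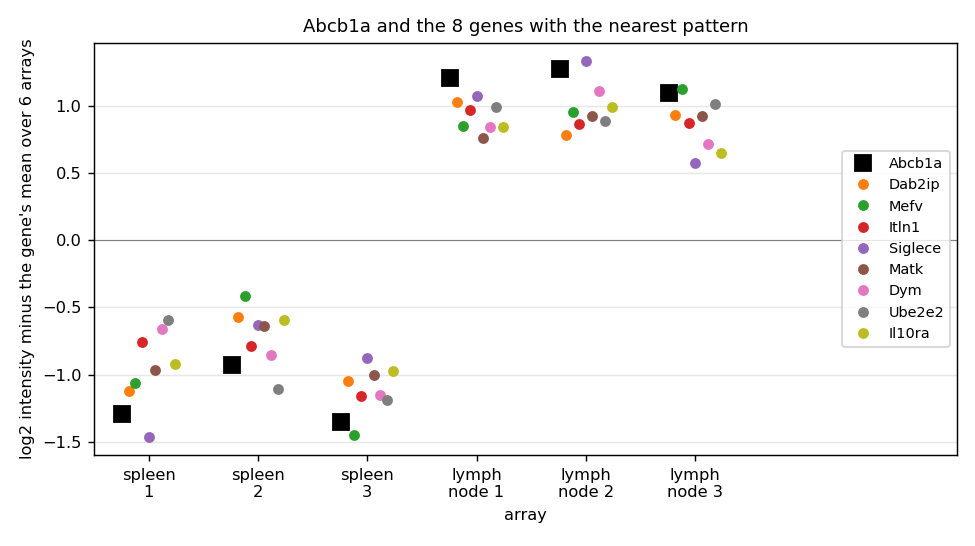
Log2 intensity minus each gene's mean over the 6 arrays (vertical axis) for Abcb1a (black squares) and the 8 genes with the smallest distance to it (coloured points), by array. All 9 genes lie below 0 on the 3 spleen arrays and above 0 on the 3 lymph node arrays, at distances of 0.30 to 0.36 from Abcb1a.

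Solute carriers take up or exchange many of the compounds that the pumps export. Of 38 listed carriers of drugs, nucleosides, folates and peptides, 30 were measured, and 2 were higher and 1 lower in spleen arrays in limma, or 10% beside 3.4% of all genes, with a median difference of 0.015. Slc22a4, an ergothioneine and organic cation carrier, read 6.86, 6.65 and 5.69 on the spleen arrays and 4.51, 4.41 and 4.18 on the lymph node arrays, and was 4.08-fold higher (2.03 ± 0.30 SE, adjusted p = 0.0188). Slco3a1, an organic anion carrier, was 3.80-fold higher (1.93 ± 0.25 SE, adjusted p = 0.0113), and all 3 of its probe sets were higher. Slc46a3, a lysosomal carrier, was 1.98-fold lower (-0.99 ± 0.17 SE, adjusted p = 0.0310). With 1 array left out these 3 passed in 3, 4 and 2 of 6 fits: Slc22a4 was lost without spleen array 1 and lymph node arrays 1 and 2 (adjusted p up to 0.0919), Slco3a1 without lymph node arrays 1 and 2 (up to 0.0638), and Slc46a3 also without spleen array 1 and lymph node array 3 (up to 0.145).

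Glutathione is both the conjugating partner and a cosubstrate of MRP1. Of 32 listed genes of glutathione and conjugation 29 were measured, and 2 were higher and 1 lower in spleen arrays in limma, or 10.3% beside 3.4% of all genes, with a median difference of 0.097. Gclc, the catalytic subunit of the enzyme that limits glutathione synthesis, was 2.15-fold higher (1.11 ± 0.20 SE, adjusted p = 0.0331), as it was in its other probe set. Gsr, glutathione reductase, was 1.89-fold higher (0.92 ± 0.16 SE, adjusted p = 0.0310) by its brightest probe set, while the other differed by -0.032. Ggct, which breaks down gamma-glutamyl peptides, was 2.21-fold lower (-1.14 ± 0.22 SE, adjusted p = 0.0370). With 1 array left out, Gsr passed only without spleen array 3 (adjusted p up to 0.147 in the others) and Ggct only without spleen array 1 (up to 0.162). Gclc passed without spleen array 3 or lymph node array 3 and not in the other 4 fits (up to 0.152).

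Leukotriene C4 and sphingosine phosphate, substrates of MRP1, have their own enzymes and receptors. Of 20 listed genes 15 were measured, and 1 was lower and 0 higher in spleen arrays in limma, or 6.67% beside 3.4% of all genes, with a median difference of 0.045. That gene, Ggt5, converts leukotriene C4 to D4 outside the cell. It read 4.52, 5.17 and 4.61 on the spleen arrays and 6.22, 6.68 and 6.15 on the lymph node arrays, 3.00-fold lower in spleen arrays (-1.59 ± 0.24 SE, adjusted p = 0.0183), and its other probe set differed by -2.38. The Ggt5 call was lost without spleen array 1 and without each of lymph node arrays 1 and 2 (adjusted p up to 0.0887). Mgst2, a microsomal enzyme that can conjugate leukotrienes, missed the threshold at a difference of 1.52 ± 0.38 (SE, adjusted p = 0.0755). Without spleen array 3 the list had 2 genes past the threshold.

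Porphyrins are substrates of BCRP. Of 16 listed genes of porphyrin and haem handling 15 were measured and 0 passed in limma. At an unadjusted p under 0.05 there were 5, or 33.3% beside 19% of all genes, and 12 of the 15 differences were below 0, 80% beside 50.7% of all genes, with a median of -0.26. Flvcr1, a plasma membrane haem exporter, differed by -1.24 ± 0.27 (SE, adjusted p = 0.0523), and Cpox, coproporphyrinogen oxidase, by 0.98 ± 0.25 (SE, adjusted p = 0.0821). Flvcr1 passed in 1 of the 6 fits with 1 array left out, without spleen array 1 (adjusted p = 0.0416). Without spleen array 3, 2 genes of the list passed.

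Phospholipid flippases and scramblases set the lipid asymmetry that Abcb4 also acts on. Of 20 listed genes 13 were measured, and 1 was higher and 0 lower in spleen arrays in limma, or 7.69% beside 3.4% of all genes, with a median of -0.024. Plscr1, a scramblase gene that interferon induces, was 3.35-fold higher (1.75 ± 0.33 SE, adjusted p = 0.0368), with its other probe set at 1.78. It passed in 1 of the 6 fits with 1 array left out, that without spleen array 3, with adjusted p up to 0.141 in the others, and not with an offset of 16 (0.0673). Atp10a, a flippase gene, missed the threshold at 0.51 ± 0.31 (SE, adjusted p = 0.439).

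Regulators and membrane anchors of the pumps came last. Of 34 listed genes, among them the xenobiotic receptors, the CCAAT-binding NF-Y subunits and the ezrin family, 31 were measured. In limma 0 passed, and 2 had an unadjusted p under 0.05, or 6.45% beside 19% of all genes, with a median difference of -0.024. Nr1i3, the xenobiotic receptor CAR, lay near the level of the TrpnX control in both groups (2.28 ± 0.10 in spleen arrays and 2.97 ± 0.18 in lymph node arrays, SD, n = 3 each) and did not pass (adjusted p = 0.0660). Ahr, the aryl hydrocarbon receptor, varied between arrays, at 7.07, 8.69 and 6.14 on the spleen arrays and 8.73, 8.30 and 7.58 on the lymph node arrays, and did not pass (adjusted p = 0.484).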

How the data were processed

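Total RNA of sorted CD11c-positive DCs was profiled on Affymetrix 3′ arrays, 3 per organ, from 2 ng of RNA with 20 ng of carrier in the extraction, per the labels' protocols. The deposited values are probe set intensity summaries on a linear scale. The tools RMA and limma are named, per the submitters' processing notes, but their versions were not given in sources used here. Any floor or rescaling is unknown, and no detection calls were used. Of 22690 probe sets, 20393 had 1 gene symbol, 691 several and 1606 none. Of the first, 20364 were matched by Entrez identifier to RefSeq (GRCm38.p6), which changed 0 symbols and served otherwise for gene order.

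Groups came from the sample titles. Each of 12394 genes was read from its brightest probe set, transformed to log2 and compared with limma 3.58.1 in R 4.3.3 (lmFit and eBayes, two-sided, Benjamini-Hochberg over all genes, threshold 0.05). The function was tested on simulated data. The genes and lists were chosen with earlier results of these data known. Named were, per list, up to 4 genes past the threshold by smallest adjusted p and, with fewer than 2, the 2 with the largest differences, besides the nearest neighbours and patterns. Alternatives were a filter at the median level, an offset of 16, median centring, quantile normalization once more, trend and robust eBayes, array weights, a replicate block, other probe set choices, a threshold of 0.01, the poly-A level as a covariate and arrays left out.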

Additional observations from a re-analysis of the deposited data

How the results depend on the processing

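The Abcb1a difference stayed negative in all 15 alternatives (-2.51 to -1.90), as did those of Abcb1b (-0.56 to -0.38) and Abcg2 (-0.79 to -0.12), and that of Abcc1 stayed positive (0.60 to 1.17). Abcb4, Abcc3 and Abcc5 took either sign. The median over the 7 genes was -0.42 to -0.016 with 1 array left out and -0.52 after adjusting for the poly-A level. The count of all genes past the threshold was 764 with array weights, 63 at a threshold of 0.01, 0 with the poly-A covariate (701 at an unadjusted p under 0.05) and 47 to 475 with 1 array left out. With 1 array left out, the counts were 1 to 2 for the 7 efflux genes, 0 to 4 for other ABC genes, 0 to 3 for solute carriers, 0 to 2 each for the glutathione, leukotriene and porphyrin lists, 0 to 1 each for the flippase list and the neighbours, and 0 for regulators. The poly-A covariate gave 0 for each of these lists (in limma, with 1, 4, 2, 1, 1, 2, 1, 0 and 1 genes at an unadjusted p under 0.05, in that order), and it turned the Ahr difference to 2.19 (adjusted p = 0.880); the cause was not tested. At a threshold of 0.01 the efflux genes had 1, other ABC genes 1, and the carrier, glutathione, leukotriene, flippase and neighbour lists 0. Other ABC genes had 2 with the median filter and 3 each with the replicate block and without both arrays numbered 3. Array weights gave 1 regulator, 3 leukotriene genes, 2 porphyrin genes and 2 neighbours, and trend and robust eBayes 1 regulator and 1 porphyrin gene. The porphyrin list had 1 with the second quantile normalization, the median filter, the mean of all probe sets or without both arrays numbered 3, and the leukotriene list 2 in the last of these. The flippase list and the neighbours had 0 with the offset of 16, and the neighbours 0 and the efflux genes 1 with the mean of all probe sets. With the replicate number as a block, 518 genes passed, with 1 efflux gene, 2 leukotriene genes and 2 porphyrin genes, and Cftr, Gclc, Abcg1 and Ccr7 did not pass (adjusted p = 0.0502, 0.0565, 0.0770 and 0.0538). Same-numbered arrays deviated together with correlations of 0.022, 0.24 and 0.16 across genes, against -0.28 to 0.13 for arrays of unlike number. Not every array correlated best with its own number. These values do not decide whether the numbers pair the arrays, and the fit used for the results above did not pair them. Of 424 values for 24 named genes, 294 kept direction and side of the threshold, 113 lost the threshold, 16 gained it and 1 reversed. The 294 include values of genes that passed in neither fit. Nr1i3, Ahr, Mgst2, Flvcr1, Cpox, Atp10a and Cyp51 had not passed at first, so all 113 losses fell on the other genes. The pooled count therefore makes the calls look steadier than they were. Low values limit what Abcc3, Cftr, Abca1 and Nr1i3 can show. Abcb4 and Abcg2 were low as well, with geometric mean intensities of 28.2 and 26.5 in spleen arrays. In lymph node arrays they were 30.2 and 39.5, beside array medians of 39.4 to 41.3. In spleen arrays Abcb1b (39.6) and Abcb1a (47.8) were also near those medians, and no detection calls were used. Whether background limits the size of the Abcb1a difference was not tested.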

Other observations

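Probe sets of one ABC gene did not always have the same sign. Of the 32 other ABC genes measured, 14 had several probe sets, and these had the same sign in 7 genes and mixed signs in 7. The share over all genes was not computed, so this is not read as a trait of the family. Some mixed signs rested on differences smaller than their SE, such as 0.0085 ± 0.23 for Abcb9 and -0.040 ± 0.18 for Tap1. Abcg3, Abca1 and Cftr, which passed the threshold, were not among the mixed genes. Abcb10 and Abcf3 were chosen as examples after their values were seen. For Abcb10, a mitochondrial ABC gene of haem-forming cells, the brightest probe set differed by 0.30 between spleen and lymph node arrays, while the others differed by -0.31 and -0.43. For Abcf3, a cytosolic ABC protein without a membrane part, the values were -0.30, 0.35 and -0.098. The 3 genes nearest in pattern to each of the 6 efflux genes other than Abcb1a made 18 in all. Of these, 0 belonged to the pathway lists, the chromosomal neighbours or the efflux genes. The cell type marker lists were not part of that count. One of the 18, C1qc, is a red pulp macrophage marker and ranked 2 among the genes nearest to Abcc3 (distance 0.20).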
